A study of Mus musculus with 7 samples.

Results

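Collagens are extracellular matrix proteins in which 3 chains wind into a triple helix, and each chain is made from its own gene. The genes described here are all those of the count table whose mouse symbol is Col, a number, the letter a and a number. There were 44 such genes among 54532 features, and 34 of them had enough counts to be tested along with 15441 genes in all. They were measured by RNA sequencing in C3H10T1/2, a mouse embryonic cell line that the labels call mesenchymal stem cells. The control group of 3 libraries was untreated. The OB group of 4 libraries was induced for 3 days toward osteoblasts, the bone-forming cells. The inducing agents were ascorbic acid at 50 µM, β-glycerophosphate at 10 mM and dexamethasone. The last is a synthetic glucocorticoid whose dose is left out because the labels write it ambiguously. Both groups grew in the same medium with fetal bovine serum. A single immortal line stands here for a stem cell, and the labels do not say when the control cultures were harvested relative to induction.

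The labels' cell type was checked by summed marker levels in CPM, a gene's counts per 1000000 counts of its library after scaling. Markers of mesenchymal cells summed to 8220 to 9130 CPM in control and 8300 to 9230 CPM in OB. The osteoblast list (Runx2, Sp7, Alpl, Bglap and others) summed to 465 to 682 CPM and 218 to 791 CPM, with overlap. That sum was nearly all Spp1 (444 and 310 CPM in the mean) and Runx2 (97.1 and 76.6 CPM), while the more specific Sp7, Alpl and Bglap averaged at most 0.253 CPM in either group. Of the other members, Phex averaged 10.2 and 27.1 CPM and Dmp1 1.34 and 0.433 CPM, both with overlap. Ibsp averaged 0.0227 and 0.317 CPM, without overlap, and DESeq2 called it higher. The chondrocyte list, nearly all of it Sox9 (301 and 411 CPM) with Acan at 0 counts in every control library, summed to 125 to 465 and 267 to 647 CPM. The smooth muscle list summed to 967 to 1110 and 739 to 1350 CPM, mostly Acta2 (960 and 843 CPM), with Tagln at 0.788 and 0.690 CPM. The tendon list summed to 83.2 to 253 and 50.6 to 293 CPM. In the mean it was mostly Egr1 (111 and 132.5 CPM), with Scx at 13.8 and 4.82 CPM. The adipocyte list stood at 46 to 74.1 CPM in control and 100 to 184 CPM in OB, without overlap. Endothelial, epithelial and macrophage lists were at or under 14.1 CPM in every library. Libraries held 21213328 to 46530017 counts, so that 3 counts equal 0.0639 to 0.139 CPM. Control 3 stood apart from the other libraries on the first principal component, and it was the lowest of the 7 libraries for 21 of the 34 tested collagens, against 30.4% of all genes tested. The submitters' sample descriptions mark control 1 and OB 1 as C1 and control 2 and OB 2 as C2, while control 3, OB 3 and OB 4 carry no such mark, and results are also given within these label sets.

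Collagen genes are sorted here by the structure their proteins build. Fibrillar collagens such as types I, III, V and XI form the striated fibrils of bone, skin and cartilage. Network collagens of type IV form the sheet of basement membranes. Short-chain collagens of types VIII and X form hexagonal lattices, in vessel walls and the cornea for type VIII and in growth cartilage for type X. FACIT collagens (fibril-associated collagens with interrupted triple helices) sit on the surface of fibrils. The beaded filaments of type VI, the anchoring fibrils of type VII, the transmembrane types and the multiplexins make up most of the rest. Type I collagen is the main protein of bone, and ascorbic acid is a cofactor of the enzymes that hydroxylate its prolines and lysines.

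The triple helix leaves its mark in the genes themselves. Glycine fills the first place of each Gly-X-Y triplet, and fibrillar collagen genes are built of exons whose lengths hold whole triplets, many of them 54 bases long. For each of 4 fibrillar genes the first internal coding exon of 54 bases that has a glycine codon at the head of all 6 triplets is shown, read 5′ to 3′ from GRCm38 on the coding strand, with the glycine codons (GGN) in capitals. Col1a1 and Col1a2 are the most abundant collagens in these cells, Col3a1 is their usual fibril partner, and Col11a2 was higher in OB. The exons lie at chr11:94939904-94939957 (Col1a1, plus strand, exon 8), chr6:4515481-4515534 (Col1a2, plus strand, exon 8), chr1:45325360-45325413 (Col3a1, plus strand, exon 6) and chr17:34051480-34051533 (Col11a2, plus strand, exon 15).
Col1a1: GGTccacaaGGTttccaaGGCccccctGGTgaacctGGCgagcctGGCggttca
Col1a2: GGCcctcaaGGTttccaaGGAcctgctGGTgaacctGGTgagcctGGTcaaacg
Col3a1: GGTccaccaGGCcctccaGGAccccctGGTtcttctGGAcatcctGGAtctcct
Col11a2: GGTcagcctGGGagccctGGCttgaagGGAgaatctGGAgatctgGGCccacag
The glycine codon stands at the head of all 6 triplets in 21 of 21 exons of 54 bases of Col1a1, 23 of 24 of Col1a2, 24 of 24 of Col3a1 and 31 of 31 of Col11a2.

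The share of exons of that length, which the choice of genes by symbol did not use, was highest in the fibrillar class as a whole, while single genes of different classes overlapped. Over the transcript with the longest coding sequence of each gene, 48.64% of the 627 internal coding exons of fibrillar genes were exactly 54 bases long. That share was 26.33% of 414 exons in the FACIT genes, 9.33% of 150 in the transmembrane genes, 8.25% of 206 in the beaded filament genes and 4.23% of 284 in the network genes. In other protein-coding genes 0.44% of 157015 exons had that length. A run of whole Gly-X-Y triplets has a length that is a multiple of 9. Exons of such a length made up 83.9% of fibrillar, 70.7% of transmembrane, 65.5% of anchoring fibril and 55.1% of FACIT exons. They made up 54.4% of beaded filament, 47.2% of network and 37.7% of multiplexin exons. For Col26a1 and Col28a1 together the share was 30.2%, against 13.7% in other protein-coding genes. The 3 short-chain genes, Col8a1, Col8a2 and Col10a1, have 2 coding exons each and therefore no internal coding exon.

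**Figure D1:**
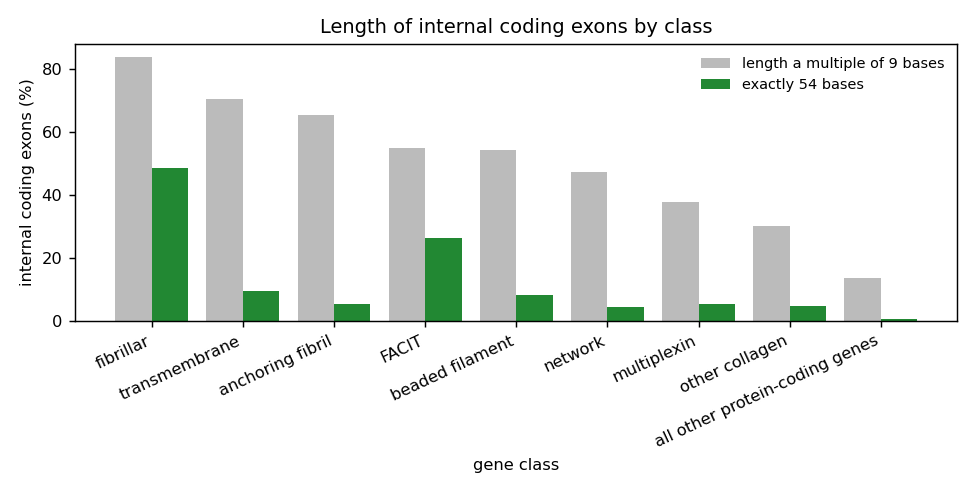
Length of internal coding exons by collagen class, as the percentage of exons of exactly 54 bases and of a length that is a multiple of 9 bases, with all other protein-coding genes for comparison. The short-chain genes have none and are not drawn. The fibrillar genes stand highest on both measures, at 48.64% and 83.9%.

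Collagen transcripts took 2.74% to 4.21% of the counts of a control library and 2.60% to 3.53% of an OB library. Over the 7 libraries 7 members averaged at least 1000 CPM, 9 averaged 100 to 1000 CPM, 9 averaged 10 to 100 CPM, 6 averaged 1 to 10 CPM and 13 averaged under 1 CPM. Levels of different genes are compared per length, as CPM per kilobase of the deposited exon length. On that scale Col1a1 (1797 in control and 1049 in OB), Col1a2 (870.8 and 678.8), Col6a1 (461 and 668.4) and Col3a1 (416.3 and 264.9) held ranks 1 to 4 in both groups. The order of the first 2 depends on the length used. The deposited length of Col1a2 sums all annotated exons, and per kilobase of its longest coding transcript, an alternative chosen after seeing the data, Col1a2 stood at 2023 in control and 1577 in OB and Col1a1 at 1989 and 1161.

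The mix of classes differed between the groups. Summed over all collagens, the level was 4407 ± 999.8 CPM per kilobase in control (SD, n = 3) and 3713 ± 325.8 in OB (SD, n = 4), with overlap. Fibrillar chains made up 76.43%, 73.4% and 84.8% of that sum in the 3 control libraries and 57.41%, 50.83%, 71.22% and 65.41% in the 4 OB libraries, so every OB library lay below every control library. Col1a1, Col1a2 and Col3a1 alone gave 67.12% to 75.15% in control and 43.32% to 62.93% in OB. The network share was 3.882%, 4.777% and 4.235% in control and 9.7%, 10.67%, 6.814% and 8.185% in OB, again without overlap and in the other direction. Beaded filament chains made up 14.15% ± 5.797 (SD, n = 3) in control and 25.51% ± 6.81 (SD, n = 4) in OB, with overlap. The shares of 1 library sum to 100%, so they are not independent of each other, and sums over members were not tested. In bulk RNA fewer cells that make a collagen and less RNA per cell cannot be told apart.

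In absolute terms the fibrillar sum was 3408 ± 542.6 CPM per kilobase in control (SD, n = 3) and 2292 ± 526.8 in OB (SD, n = 4), an OB to control ratio of 0.673 with overlap. OB 3, at 2982, stood above control 3, at 2815. The network sum was 179.2, 252.5 and 140.6 in control and 346, 368.7, 285.3 and 298.2 in OB, a ratio of 1.70 without overlap. The FACIT sum was 93.42 ± 1.24 in control (SD, n = 3) and 98.59 ± 30.26 in OB (SD, n = 4), and the short-chain sum was 7.474 ± 3.388 and 7.465 ± 1.955. In both of these classes the mean hardly differed beside the spread between libraries. The 4 classes thus ranked fibrillar, network, FACIT and short-chain in the mean of each group. Beaded filaments, at 661.7 ± 370.1 in control (SD, n = 3) and 932.7 ± 186.2 in OB (SD, n = 4), stood between fibrillar and network.

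**Figure D2:**
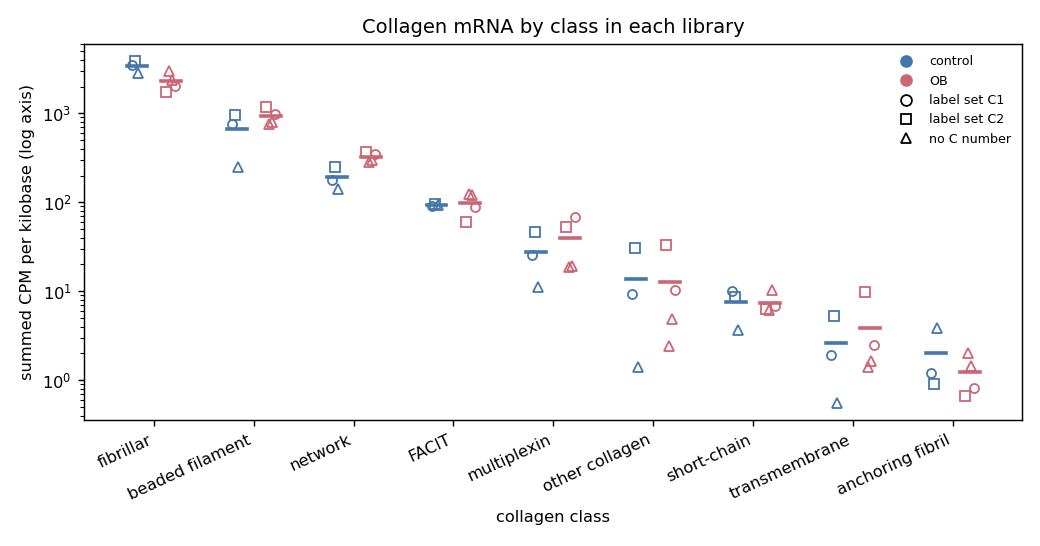
Summed level of each collagen class in each library, in CPM per kilobase of deposited exon length on a log axis, with points for libraries (shapes for the label sets) and a bar for the mean of each group. Network chains are higher in each of the 4 OB libraries than in any control library, while the fibrillar points of the groups overlap.

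Gene by gene, edgeR's quasi-likelihood test, with p-values adjusted over all 15441 genes by Benjamini-Hochberg, called 4 of the 34 tested collagens, beside 8.04% of all genes. Col11a2 and Col4a1 rose, 2 of 34 beside 4.32% of all genes called higher. Col8a1 and Col18a1 fell, 2 of 34 beside 3.72% called lower. The other 30 did not pass at an adjusted p of 0.05. At an unadjusted p under 0.05 there were 5 higher and 4 lower of the 34, beside 1971 higher and 1918 lower of all 15441 genes. DESeq2 called 5 higher and 4 lower of 36 tested (6.9% and 6.03% of all genes), limma-voom 2 and 4 (8.08% and 7%), and edgeR without its low-count filter 4 and 3 of 44 (2.43% and 2.29%). With the replicate number as a block edgeR called 3 higher and 2 lower (5.38% and 3.38%), and with the label set as a block 4 and 4 (9.28% and 8.13%). Groups did not overlap for 8 members, beside 25.5% of all genes. OB lay above for Col11a1, Col11a2, Col27a1, Col4a1 and Col4a2 (13.2% of all genes) and below for Col1a1, Col8a1 and Col18a1 (12.3%). These counts of members are small, so 1 or 2 genes more or fewer change how they stand beside the shares for all genes. Whether the members differ from those shares was not tested. The unfiltered share is over 29763 features, of which 15441 passed the filter, against 34 of the 44 members, so these sets differ in level. The median log2 fold change was 0.21 over the 34 members and 0.00 over all genes tested. By class, 1 of 10 tested fibrillar genes was higher with a median log2 fold change of -0.16. Of 5 network genes 1 was higher with a median of 0.54, and of 3 short-chain genes 1 was lower with a median of -0.08. The network median is the value of Col4a3, a rare chain with 32 pooled counts in control and 48 in OB (adjusted p = 0.463). None of 6 FACIT genes was called by edgeR without a block, none by DESeq2 and none by limma-voom. Their median was 0.48, and 0 had an unadjusted p under 0.05 in edgeR and in limma-voom, and 2 in DESeq2.

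**Figure D3:**
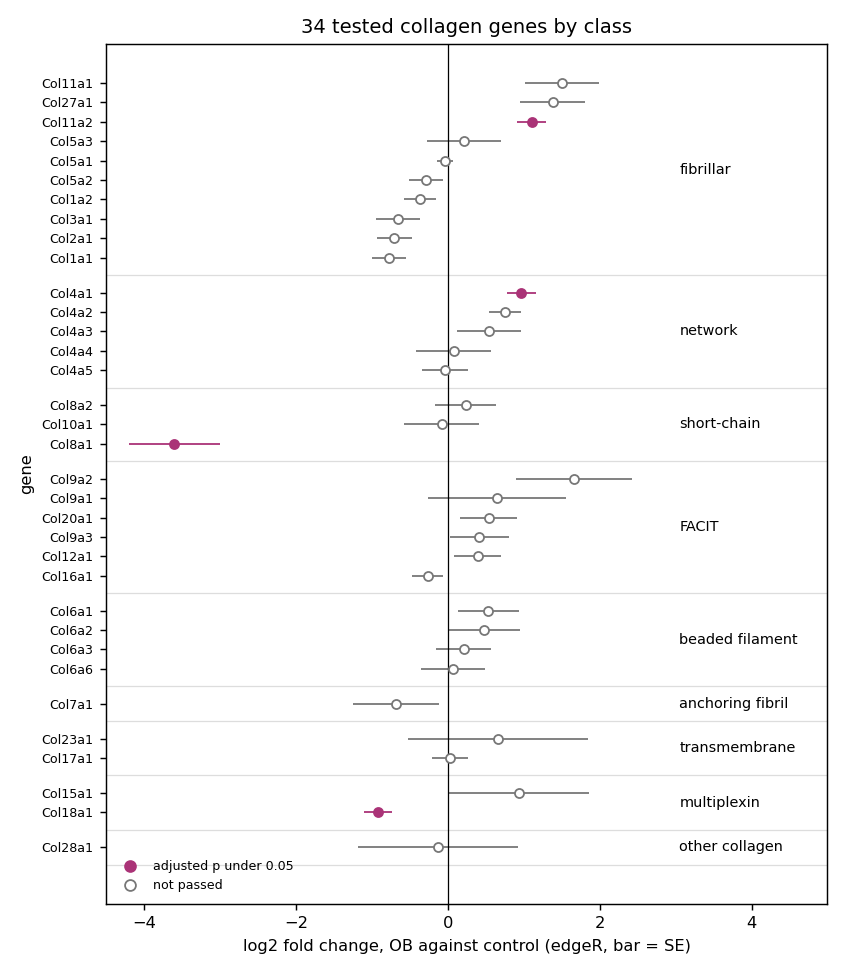
Log2 fold change of OB against control for the 34 tested collagen genes, grouped by class, with bars of 1 standard error. Filled points mark the 4 genes past an adjusted p of 0.05, and the classes overlap along the axis.

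The chains of type I collagen, the main bone fibril, were the most abundant members and did not pass the test. Col1a1 (ENSMUSG00000001506, chr11:94936224-94953042 in mm10) was at 11560, 13710 and 10120 CPM in control and 6124, 4887, 9406 and 7120 CPM in OB. Every OB library was below every control library, and OB 3 came closest. The log2 fold change of Col1a1 was -0.78 with a standard error of 0.23 and an adjusted p of 0.0751. The call depends on the tool and on 1 library, since Col1a1 passed in DESeq2 with an adjusted p of 0.0147, in limma-voom with 0.0291 and in edgeR without OB 3 with 0.0478. Its log2 ratio was -0.92 in the C1 set, -1.49 in the C2 set and -0.29 in the set without a C mark. Col1a2, the partner chain, was at 11700, 11550 and 9209 CPM in control and 7408, 6244, 11290 and 8800 CPM in OB. These groups overlap, with OB 3 at the control level, and the log2 fold change was -0.36 (standard error 0.21, adjusted p = 0.328).

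Col3a1, the chain of the thin type III fibrils of elastic tissues, was at 4984, 5199 and 2077 CPM in control and 2654, 2446, 2880 and 2421 CPM in OB. Control 3 lay below every OB library, and the other control libraries lay above all of them. The log2 fold change was -0.65 (standard error 0.29, adjusted p = 0.205), and without control 3 it was -0.98 with an adjusted p of 0.00785. The log2 ratio of Col3a1 was -0.91 in the C1 set, -1.09 in the C2 set and 0.35 in the set without a C mark, so the label sets differ in direction. Col5a1, the type V chain that starts type I fibrils, differed little, at 1128 ± 29.35 CPM in control (SD, n = 3) and 1101 ± 73.64 CPM in OB (SD, n = 4), with an adjusted p of 0.860. Col5a2, its partner, was at 1247 ± 76.06 and 1020 ± 301.6 CPM (adjusted p = 0.457).

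Among the chains best known from cartilage the direction was mixed. Col11a2 (ENSMUSG00000024330, chr17:34039437-34066685), a type XI chain, was at 15.03, 11.96 and 9.644 CPM in control and 21.19, 28.52, 27.11 and 28.75 CPM in OB. All 4 OB libraries were above the highest control. Col11a2 rose by a log2 fold change of 1.11 (standard error 0.19, adjusted p = 0.0172), and its log2 ratio was 0.50, 1.25 and 1.53 in the C1, C2 and unmarked sets. Without control 2 its adjusted p was 0.0694, and among the C1 and C2 libraries alone it was 0.0552. Col11a1, the other type XI chain, was at 103, 100.3 and 59.53 CPM in control and 134.5, 112.1, 383.3 and 363 CPM in OB. The groups do not overlap, yet OB 3 and OB 4 stood far above OB 1 and OB 2, and the log2 fold change of 1.502 had a standard error of 0.48 and an adjusted p of 0.101. Col27a1, a fibrillar chain of cartilage, was at 23.35, 21.33 and 8.573 CPM in control and 26.88, 34.7, 52.88 and 71.2 CPM in OB (log2 fold change 1.38, standard error 0.43, adjusted p = 0.0926). Col11a1 and Col27a1 passed in DESeq2, with adjusted p of 0.00976 and 0.00993.

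Col2a1, the main fibrillar chain of cartilage, pointed the other way, at 279.2, 421.9 and 406.6 CPM in control and 171.3, 214.4, 208.8 and 313.1 CPM in OB. OB 4 lay above control 1, and the log2 fold change was -0.70 (standard error 0.23, adjusted p = 0.102). Col2a1 passed as lower in DESeq2 (-0.71, adjusted p = 0.0428), with the replicate number as a block (-0.88, adjusted p = 0.0135) and with the label set as a block (-0.76, adjusted p = 0.0250). The summed chondrocyte markers, which hold no collagen, overlapped between the groups as given above. None of their 4 tested members passed in DESeq2, limma-voom or edgeR with or without the replicate block. An unadjusted p under 0.05 was found for 0 in unblocked edgeR, 2 with the replicate block and 1 each in DESeq2 and limma-voom. The part of these markers in the collagen results was not tested. Col5a3, the remaining tested fibrillar chain, ranged from 29.53 to 120 CPM in control and from 56.61 to 143.9 CPM in OB.

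**Figure D4:**
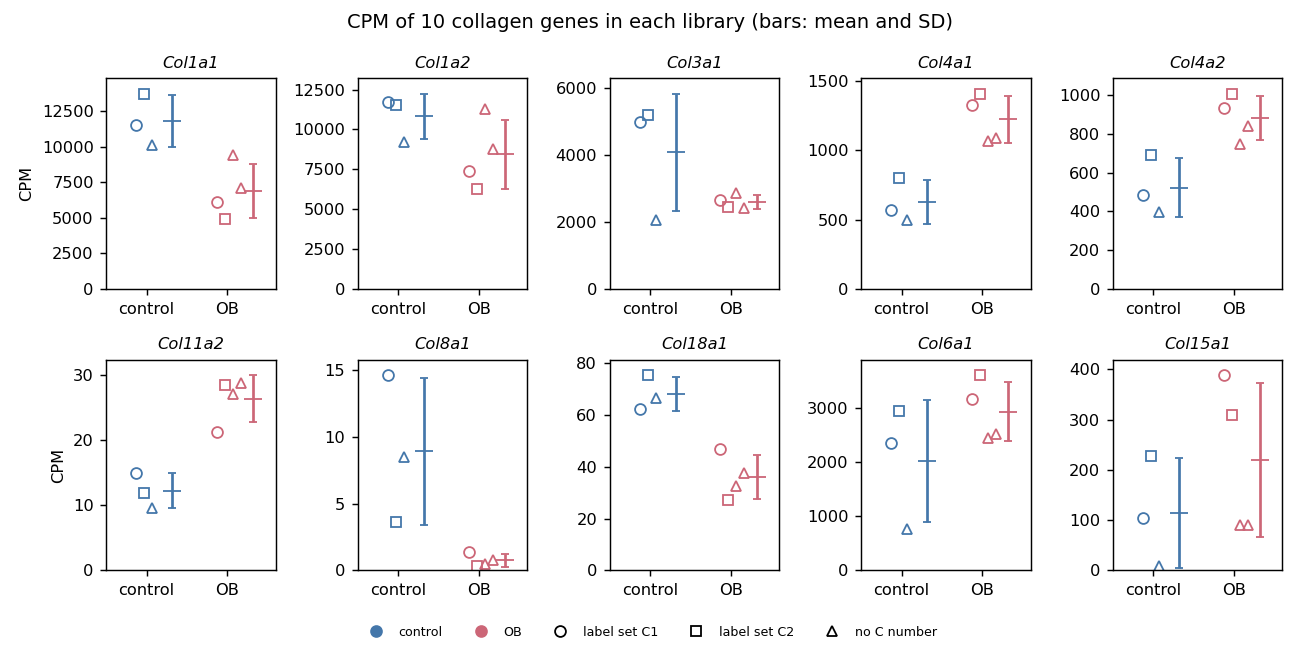
CPM of 10 collagen genes in each library on linear axes from 0, 1 panel per gene, with points for libraries (shapes for the label sets) and bars for the group mean and SD. Col8a1 and Col18a1 are lower and Col4a1 and Col11a2 higher in all 4 OB libraries than in any control library.

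Of the 2 main basement membrane chains Col4a1 passed the test and Col4a2 came close to it. Col4a1 (ENSMUSG00000031502, chr8:11198423-11312826), which with Col4a2 forms the common type IV network, was at 570.1, 802.3 and 498.4 CPM in control and 1323, 1404, 1069 and 1090 CPM in OB. The lowest OB library stood above the highest control. Col4a1 rose by a log2 fold change of 0.97 (standard error 0.19, adjusted p = 0.0257), and its mean was 623.6 ± 158.8 CPM in control and 1222 ± 167.4 CPM in OB (SD, n = 3 and 4). Leaving out control 1, OB 1, OB 2 or OB 4 ended this call, with adjusted p of 0.0629, 0.0790, 0.0599 and 0.0538. Col4a2 (ENSMUSG00000031503) was at 482.8, 693.3 and 394.8 CPM in control and 936, 1006, 748.5 and 842.5 CPM in OB, also without overlap. Its log2 fold change was 0.75 with a standard error of 0.21 and an adjusted p of 0.0616, and with the replicate block it was 0.81 with an adjusted p of 0.0236. Without control 2 Col4a2 also passed, with an adjusted p of 0.0460. Within label sets the log2 ratio of Col4a1 was 1.22, 0.81 and 1.12, and that of Col4a2 was 0.96, 0.54 and 1.01, higher in every set for both.

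Col4a1 and Col4a2 lie head to head on chromosome 8. Col4a1 starts on the minus strand at base 11312826 and Col4a2 on the plus strand at base 11312805, so the annotated starts are 21 bases apart and the first exons overlap. The counting did not use strand, and fragments in this overlap could not be given to either gene. The summed range of the adipocyte markers also did not overlap between the groups. Of their 4 tested members 2 were called higher (Pparg and Fabp4), beside 4.32% of all genes tested. Adipoq, Plin1, Cidec and Lep were under the edgeR filter and averaged at most 0.710 CPM in either group. Adipoq and Plin1 were highest in OB 2, at 2.26 and 0.893 CPM. With the replicate block Cebpa, Fabp4 and Lpl were called higher and Pparg was not (5.38% of all genes). DESeq2 called Adipoq, Fabp4 and Pparg higher (6.9%). The endothelial list stayed at 2.7 to 10.5 CPM in control and 3.43 to 8.15 CPM in OB. Of the other lists, Lmod1 of smooth muscle (17.5 and 69.5 CPM, adjusted p = 0.0492) and Pdgfra of mesenchymal cells (246.8 and 719.8 CPM, adjusted p = 0.0182) were also called higher. The part of these markers in the type IV result was not tested. Col4a5, a chain of kidney and smooth muscle basement membranes, was at 200.1, 269.8 and 94.65 CPM in control and 182.4, 191.9, 193.8 and 166.8 CPM in OB, with overlap. The other network chains were rare, with Col4a3 at 0.274 ± 0.135 CPM in control (SD, n = 3) and 0.412 ± 0.087 CPM in OB (SD, n = 4), Col4a4 at 0.349 ± 0.111 and 0.363 ± 0.185 CPM, and Col4a6 under the test's filter with 32 and 24 pooled counts.

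The short-chain class held the log2 fold change of largest size among the 34 tested members. Col8a1 (ENSMUSG00000068196, chr16:57624258-57754737), a type VIII chain, was at 14.58, 3.645 and 8.493 CPM in control and 1.383, 0.306, 0.510 and 0.786 CPM in OB. Every OB library lay under the lowest control, and the pooled counts were 1027 in control and 77 in OB. Col8a1 fell by 3.60 on the log2 scale (standard error 0.61, adjusted p = 0.0157), and its log2 ratio was -3.40, -3.58 and -3.71 in the C1, C2 and unmarked sets. No single left-out library ended the call, and among the C1 and C2 libraries alone it had an adjusted p of 0.0760. Col8a2, the other type VIII chain, was at 34.19, 33.97 and 10.72 CPM in control and 27.12, 25.79, 26.33 and 44.89 CPM in OB. These groups overlap, with the lowest value in control 3, and the log2 fold change was 0.24 (adjusted p = 0.756). The difference between the partner chains in their response was not tested. Col10a1, the marker of hypertrophic growth cartilage, was low in both groups, at 1.503 ± 0.794 CPM in control (SD, n = 3) and 1.43 ± 0.65 CPM in OB (SD, n = 4).

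No FACIT gene passed in the unblocked fit over all 7 libraries, while the unmarked libraries alone gave Col9a1, Col9a2, Col9a3, Col12a1 and Col20a1 as higher. Col16a1, the FACIT chain of highest mean level per length over the 7 libraries, was at 343.8, 339.3 and 384.7 CPM in control and 294.3, 192.2, 356 and 344.7 CPM in OB (log2 fold change -0.26, adjusted p = 0.466). Col12a1, a chain of dense connective tissue and periosteum, was at 547.3, 584.7 and 530.1 CPM in control and 614.3, 374.3, 1001 and 926.4 CPM in OB. OB 2 lay below all control libraries while the other OB libraries lay above them, and the log2 fold change was 0.40 (adjusted p = 0.463). In OB Col12a1 stood above Col16a1 per kilobase, at 47.88 and 43.97 CPM. The type IX chains, which decorate cartilage fibrils, were low, with means of 0.889 to 3.97 CPM in control and 2.29 to 5.33 CPM in OB for Col9a1, Col9a2 and Col9a3. Col9a2 had the highest log2 fold change of the members, 1.66, at 0.766, 1.82 and 0.0794 CPM in control and 3.29, 4.16, 1.25 and 2.73 CPM in OB, with an adjusted p of 0.220. With 1 library left out its log2 fold change ran from 1.16 without control 3 to 2.64 without control 2. With the label set block Col9a2 passed (2.19, adjusted p = 0.0498). Col20a1, the remaining tested FACIT chain, averaged 13.6 ± 6.76 CPM in control (SD, n = 3) and 19.9 ± 4.80 CPM in OB (SD, n = 4).

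Type VI collagen, which links cells to the surrounding matrix, was abundant, and its 3 main chains were all lowest among controls in control 3. Col6a1 was at 2350, 2942 and 766 CPM in control and 3161, 3591, 2443 and 2515 CPM in OB, so control 2 reached into the OB range and control 3 lay far below. Its log2 fold change was 0.54 with an adjusted p of 0.445. Col6a2 was at 1265, 1802 and 336.2 CPM in control and 1630, 1981, 1336 and 1371 CPM in OB (log2 fold change 0.48, adjusted p = 0.573). Col6a3, the longest type VI chain of the molecule, was at 957.3, 939.8 and 413.2 CPM and 930.6, 1311, 545.6 and 783.3 CPM (log2 fold change 0.21, adjusted p = 0.758). The log2 ratio of Col6a1 was 0.43 and 0.29 in the C1 and C2 sets and 1.69 in the set that holds control 3. Col6a6, the fourth tested chain, averaged 0.449 and 0.463 CPM. None of the 4 passed in DESeq2, limma-voom or the unblocked edgeR fit over all 7 libraries, and 0 had an unadjusted p under 0.05 there. With the replicate block none passed and 1 had an unadjusted p under 0.05. Among the unmarked libraries, with control 3 as the sole control, the log2 fold changes were 1.68 for Col6a1, 1.995 for Col6a2 and 0.671 for Col6a3.

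Of the multiplexins, basement membrane collagens that carry sugar chains, Col18a1 fell and Col15a1 did not pass. Col18a1 (ENSMUSG00000001435, chr10:77052178-77166548), the source of the fragment endostatin, was at 62.46, 75.21 and 66.64 CPM in control and 47.01, 27.13, 32.58 and 37.65 CPM in OB. All OB libraries lay below all control libraries, and the log2 fold change was -0.92 (standard error 0.18, adjusted p = 0.0257). With the replicate block it was -0.97 with an adjusted p of 0.0519, and without control 2, OB 3 or OB 4 the adjusted p was 0.0880, 0.0676 and 0.0655. Its log2 ratio was -0.41, -1.47 and -0.92 in the C1, C2 and unmarked sets. Col15a1 was at 104.9, 228.4 and 9.763 CPM in control and 387.6, 309, 89.36 and 89.32 CPM in OB (log2 fold change 0.94, adjusted p = 0.575). Without control 3 the log2 fold change was 0.39, without OB 1 it was 0.51 and without control 2 it was 1.92, and limma-voom gave 0.09. With the replicate block it was 1.81 (adjusted p = 0.0949). Its values in the C1 and C2 libraries lay above those in the unmarked libraries of the same group, and its log2 ratio was 1.89, 0.44 and 3.19 in the 3 sets.

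The remaining tested members did not pass in the unblocked fit. Col7a1, the anchoring fibril chain, was at 12.43, 9.226 and 40.01 CPM in control and 8.499, 6.841, 21 and 14.73 CPM in OB, highest in control 3 (log2 fold change -0.69, adjusted p = 0.488). With the label set block it passed as lower (-0.77, adjusted p = 0.0479). Col23a1, a transmembrane collagen, was at 8.09, 27.94 and 0.318 CPM in control and 11.79, 52.59, 5.376 and 6.909 CPM in OB (log2 fold change 0.67, adjusted p = 0.770). Col28a1, a collagen of peripheral nerve, was at 45.62, 151.8 and 6.826 CPM and 50.99, 162.1, 11.91 and 23.66 CPM (log2 fold change -0.13, adjusted p = 0.956). Both Col23a1 and Col28a1 were highest in the C2 library of each group and lowest among controls in control 3. Col17a1, a chain of epithelial hemidesmosomes, averaged 2.75 ± 0.33 CPM in control (SD, n = 3) and 2.79 ± 0.56 CPM in OB (SD, n = 4).

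The 10 members under the filter on low counts were rare in both groups. Pooled over the 3 control and the 4 OB libraries, Col14a1 had 20 and 67 counts, Col4a6 32 and 24, Col26a1 11 and 6, Col19a1 10 and 6, Col22a1 9 and 2, and Col6a4 7 and 11. Col6a5 had 3 counts in control and 0 in OB. Col24a1 had 0 and 3, and Col13a1 and Col25a1 had 0 and 1. A count of 0 allows up to 3 counts, or 0.0639 to 0.139 CPM in a library, for counting error only. At this depth no difference in the last 4 genes could be detected.

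Chains of 1 molecule were compared as ratios of CPM per kilobase within a library. Type I collagen usually holds more α1 than α2 chains, and the Col1a1 to Col1a2 ratio was 1.87, 2.25 and 2.08 in control and 1.57, 1.48, 1.58 and 1.53 in OB. Every OB library lay below every control library, in a range that was narrower in OB (SD 0.043, n = 4) than in control (SD 0.19, n = 3). The ratio's absolute value depends on the length used and was 0.984 in control and 0.733 in OB per kilobase of transcript, while dividing by either length leaves the comparison between libraries as it is. The Col4a1 to Col4a2 ratio was 1.05, 1.03 and 1.12 in control and 1.25, 1.24, 1.27 and 1.15 in OB, higher in every OB library. The Col8a1 to Col8a2 ratio was 0.244, 0.0615 and 0.454 in control and 0.0292, 0.00679, 0.0111 and 0.0100 in OB. The ratios of Col3a1 to Col1a1, Col5a1 to Col5a2, Col6a1 to Col6a2 and Col6a3 to Col6a1 overlapped between the groups. The 7 ratios were chosen as partners in a molecule or fibril, and none was tested.

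**Figure D5:**
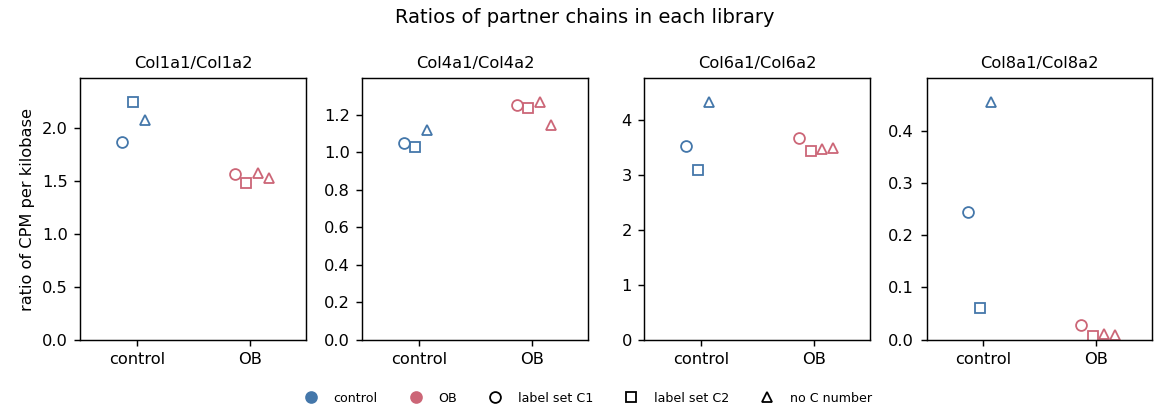
Ratio of CPM per kilobase of deposited exon length for 4 pairs of collagen chains that share a molecule or a protein type, with points for libraries and shapes for the label sets. The Col1a1 to Col1a2 and Col8a1 to Col8a2 ratios are lower, and the Col4a1 to Col4a2 ratio higher, in all 4 OB libraries than in any control library.

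Across the label sets, 13 of the 34 tested collagens were higher in OB in all 3 sets and 7 were lower in all 3. These are 38.2% and 20.6% of the tested members, and the same pattern was found for 26.5% and 25.4% of all genes tested. The sets share no library, and in the C1 and C2 sets each group is 1 library. When only C1 and C2 libraries were fitted, Col4a1 was called higher (6.27% of all genes) and Col1a1, Col3a1 and Col5a2 lower (3.41%). When only the unmarked libraries were fitted, with control 3 as the sole control, 19 members were called higher (18.9%) and 4 lower (21.2%). A single control library there is assumed to vary like the OB pair.

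The promoters of the Col8a1 and Col11a2 genes, 1 of which fell and 1 rose, are shown because their windows hold no annotated exon. Each is the 250 bases before the RefSeq start in GRCm38.p6, read 5′ to 3′ on the gene's strand, at chr16:57754738-57754987 (Col8a1, minus strand) and chr17:34038888-34039137 (Col11a2, plus strand). Capitals mark 2 strings on either strand: GGGCGG, the core of the GC box that Sp factors bind, and TATAAA, the letters of a TATA box. The RefSeq start of Col11a2 is at base 34039138, while the deposited gene starts at base 34039437.
Col8a1: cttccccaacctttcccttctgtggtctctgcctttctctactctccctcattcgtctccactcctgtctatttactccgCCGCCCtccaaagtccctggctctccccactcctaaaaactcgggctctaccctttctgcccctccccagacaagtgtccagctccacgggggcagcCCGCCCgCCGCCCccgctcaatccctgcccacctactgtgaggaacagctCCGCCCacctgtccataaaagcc
Col11a2: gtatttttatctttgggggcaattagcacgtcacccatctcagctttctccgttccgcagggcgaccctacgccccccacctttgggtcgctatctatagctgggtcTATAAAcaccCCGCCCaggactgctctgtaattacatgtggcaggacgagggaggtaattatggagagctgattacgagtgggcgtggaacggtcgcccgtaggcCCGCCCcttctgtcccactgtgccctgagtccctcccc
The Col8a1 window holds 4 GC boxes and no TATAAA, and the Col11a2 window holds 2 GC boxes and 1 TATAAA. The RefSeq table had 38 windows for 35 of the 44 members, and Col1a1 was among the members without one. On either strand GGGCGG was in 22 of these windows (57.9%, against 32.74% of all 32851 windows), CCAAT in 13 (34.2%, against 33.85%) and TATAAA in 5 (13.2%, against 12.37%). AGAACA, the half-site of glucocorticoid response elements, was in 2 (5.3%, against 16.08%), and the full palindromic element was in none (0.01% of all windows). These are letter matches in a short window, which need not be sites of binding. Base composition was not matched in these comparisons, and its part was not tested. The Col8a1 and Col11a2 windows were 60.8% and 57.6% G or C, against a mean of 53.2% over all windows. Windows of members ran from 35.2% (Col3a1) to 76.4% (Col5a1).

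Genes that make, export, cut and sense collagen were listed apart from the chains. Of 14 tested hydroxylation and glycosylation genes 1 was lower, beside 3.72% of all genes tested. P4ha1, the catalytic subunit of a prolyl 4-hydroxylase, fell by 1.30 on the log2 scale (standard error 0.28, adjusted p = 0.0320), with 202 CPM in control and 82.3 CPM in OB (SD 85.6, n = 3, and SD 18.3, n = 4). P4hb, its partner subunit, and P3h4 were the most abundant of the list and did not pass. Of 9 chaperone and export genes 1 was higher and 2 were lower, beside 4.32% and 3.72% of all genes tested. Creb3l1, a membrane-bound factor that switches on collagen export genes, fell by 1.09 on the log2 scale (standard error 0.15, adjusted p = 0.0101), and Serpinh1, the collagen chaperone HSP47, fell by 0.54 (standard error 0.13, adjusted p = 0.0413). Fkbp14, a proline isomerase of the endoplasmic reticulum, rose by a log2 fold change of 0.46 (standard error 0.11, adjusted p = 0.0436).

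Of 11 tested propeptide processing and cross-linking genes 2 were higher, beside 4.32% of all genes tested. Adamts2, which removes the amino propeptide, rose by a log2 fold change of 0.62 (standard error 0.15, adjusted p = 0.0421), and Lox, which cross-links collagen, by 0.95 (standard error 0.23, adjusted p = 0.0435). Of 15 factors known to act at collagen promoters 1 was lower, beside 3.72% of all genes tested. It was Smad3, which carries TGF-beta signals, with a log2 fold change of -0.81 (standard error 0.11, adjusted p = 0.00755). In that list Ybx1 and Sox9 were the most abundant and did not pass in this fit. At an unadjusted p under 0.05 it had 2 of the 15 higher and 5 lower, beside 1971 and 1918 of 15441 genes. DESeq2 called Scx, Smad3 and Ybx1 lower and Sox5 higher (6.03% and 6.9% of all genes). Limma-voom called Smad3 lower and Sox5 higher (7% and 8.08%). With the replicate block Scx, Smad3 and Ybx1 were called lower (3.38%). Creb3l1 and Smad3 passed under each alternative tried. With the replicate block the adjusted p of Lox was 0.0915 and that of Fkbp14 0.100, and under upper-quartile scaling they were 0.0526 and 0.0551. Without the low-count filter that of Fkbp14 was 0.0792. Among the C1 and C2 libraries alone the calls of P4ha1 (adjusted p = 0.0935), Serpinh1 (0.119), Lox (0.137) and Fkbp14 (0.119) were lost. Leaving out single libraries ended the call for Fkbp14 with any of the 7 (adjusted p 0.0649 to 0.118), for Lox with any but OB 2 (0.0599 to 0.132), for Serpinh1 with any but control 1 (0.0683 to 0.129), for Adamts2 with any but control 3 (0.0552 to 0.112) and for P4ha1 with control 2, OB 1, OB 3 or OB 4 (0.0571 to 0.0937).

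No collagen receptor, collagen-degrading enzyme or other protein with a collagen-like domain passed in the unblocked edgeR fit over all 7 libraries. With the replicate block edgeR called Itga1, Mmp14, Scara3 and Scara5 higher, beside 5.38% of all genes. In the same fit Colec10 was called lower, beside 3.38%. Among 7 tested receptors, of which the integrin chain Itgb1 and the kinase Ddr2 were the most abundant, 1 had an unadjusted p under 0.05, DESeq2 called 1 and limma-voom 0. Among 4 tested degradation genes 1 had an unadjusted p under 0.05, and DESeq2 and limma-voom each called 1, Mmp14. Among 12 collagen-like proteins, led in level by Scara5 and Emilin1, 3 had an unadjusted p under 0.05, DESeq2 called 2 and limma-voom 0. Of all 15441 genes 1971 higher and 1918 lower had an unadjusted p under 0.05 in edgeR. The all-gene shares called were 6.9% higher and 6.03% lower in DESeq2 and 8.08% and 7% in limma-voom. The median log2 fold change was -0.02 for hydroxylation and glycosylation, 0.05 for chaperones and export, 0.18 for processing and cross-linking, 0.11 for receptors, 0.69 for degradation, -0.19 for promoter factors and -0.12 for collagen-like proteins, beside 0.00 for all genes tested.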

How the data were processed

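RNA was measured in 3 control and 4 OB libraries. Per the labels' protocols it was extracted with Trizol and made into TruSeq v2 libraries, a kit that does not mark strand. Trimming with Trimmomatic, alignment with HISAT2 to mm10 and counting with featureCounts are named in the submitters' processing notes, without versions of the trimmer and aligner. The deposited values are raw counts, per the file headers from featureCounts 1.6.4 over exons of Ensembl 94, paired, with no strand, multi-mapping or overlap option. The deposited exon length, a gene's summed exons in bases (other unit), is the authors' too. Columns were matched to samples through the order of the counting command in the header, which could not be checked another way. Symbols were found for 54409 of 54532 features, and the rest took up to 0.0612% of a library's counts.

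Counts were fitted in R 4.3.3 with edgeR 4.0.16 (filterByExpr, TMM, quasi-likelihood test, Benjamini-Hochberg over all genes, threshold 0.05), and the script was tested on simulated data. The standard error is the absolute log2 fold change over the square root of F. The common biological coefficient of variation was 26.9%. CPM used TMM-scaled library sizes of the filtered genes. Alternatives used DESeq2 1.42.0, limma 3.58.1, other scalings, no filter, blocks, label sets and left-out libraries. Exons were read from the GENCODE vM21 annotation and promoters from RefSeq. Protein features were not computed.

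Libraries of 1 group differed by a chi-square per degree of freedom of at least 14.77 (OB 3 and OB 4), above sampling noise, and each was counted as 1 replicate. Replicates are biological by the design text, and a p-value here reflects only how far these 7 libraries scatter. Same-numbered control and OB libraries had correlations of 0.167, 0.523 and 0.398 in their deviations from the group means, each above 0.1. For the replicate block the numbers of the labels were therefore taken to pair them, with OB 4 alone in its block. A block of 1 library adds nothing to the difference between the groups, so fits with this block rest on the paired libraries. The main fit has no block. Differently numbered pairs correlated at up to 0.27 (control 3 and OB 4) and 0.209 (control 2 and OB 1), the latter above the 0.167 of control 1 and OB 1.

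The members, classes and lists were chosen with earlier results of these data known. Full values are given for each member past the threshold, for Col1a1, Col1a2 and Col3a1 and for the member of highest level per length in each class, and other members more shortly. Related lists name up to 3 called genes, or, with fewer than 2 called, the 2 of highest mean CPM besides any called. Marker lists cover mesenchymal, osteoblast, chondrocyte, adipocyte, smooth muscle, tendon, endothelial, epithelial and macrophage genes.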

Additional observations from a re-analysis of the deposited data

Results flagged for a closer look

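In each OB group of 4 values 1 library was set against the others by its gap to the nearest library over the whole range, for 34 tested members and 7 ratios. Of these 41 groups 4 had an outlying library, and chance gives about 1 in 20. OB 2 was the high library in 3 of them. Col9a1, a cartilage FACIT chain, was at 4.326 CPM in OB 2 and at most 1.789 CPM in the other OB libraries. Col5a3, a fibrillar chain, was at 143.9 CPM in OB 2 and at most 66.86 CPM in the others. Col23a1, a transmembrane collagen, was at 52.59 CPM in OB 2 and at most 11.79 CPM in the others. Control 2, which shares the C2 mark with OB 2, was also the highest control library for Col9a1, Col5a3 and Col23a1. Col8a2, a short-chain collagen, was at 44.89 CPM in OB 4 and at most 27.12 CPM in the others.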

How the results depend on the processing

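Of the comparisons of summary values between settings 183 stayed within the spread or within 1.5 times the count and 50 did not, and the cause was not tested. Among all genes, 667 were called higher and 574 lower. DESeq2 called 1292 and 1129, limma-voom with quality weights 1247 and 1081, the label set block 1433 and 1256, the C1 and C2 libraries alone 1030 higher and the unmarked libraries alone 3052 and 3413. Without 1 library the counts were 190 to 575 higher and 104 to 703 lower, lowest without control 2 (190 and 107) and OB 1 (225 and 104). Beside 2 collagens higher and 2 lower, no filter gave 4 and 3, DESeq2 5 and 4, limma-voom 4 lower, the replicate block 3 higher, the label set block 4 and 4, C1 and C2 libraries 1 and 3, unmarked libraries 19 and 4, and single left-out libraries 1 to 2 and 1 to 3. The replicate block, in which same-numbered libraries are paired, made Col4a2 (adjusted p = 0.0236) and Col2a1 (0.0135) pass and Col18a1 (0.0519) fail, and changed no other collagen call. The median log2 fold change of network genes, 0.54, was 0.25 in limma-voom and 0.17 to 0.69 with 1 library left out, lowest without control 3. Per kilobase of transcript, chosen after seeing the data, the control and OB ratios were 0.984 and 0.733 for Col1a1 to Col1a2, 0.361 and 0.421 for Col3a1 to Col1a1, 0.716 and 0.899 for Col5a1 to Col5a2, 1.17 and 1.35 for Col4a1 to Col4a2, and 1.85 and 1.79 for Col6a1 to Col6a2. Of the 34 tested members 17 changed sign under at least 1 alternative. Among those whose fold change is given, the log2 fold change reversed in limma-voom for Col23a1 (-0.32), Col6a3 (-0.20), Col7a1 (0.13) and Col8a2 (-0.058). Among C1 and C2 libraries it reversed for Col12a1 (-0.19), Col28a1 (0.12) and Col8a2 (-0.36). Among unmarked libraries it reversed for Col1a2 (0.11), Col28a1 (1.37), Col3a1 (0.34) and Col5a1 (0.065). With 1 library left out it spanned -0.094 (control 3) to 0.39 for Col6a3 (-0.031 without OB 2), -1.05 to 0.22 (control 3) for Col7a1, -0.14 (control 3) to 0.46 for Col8a2, -0.60 (OB 2) to 2.16 for Col23a1 and -1.24 to 1.23 (control 2) for Col28a1. Col28a1 also reversed under the replicate block (0.33), the label set block (0.56) and without OB 3 (0.22) or OB 4 (0.14). The 10 members under the filter are limited by depth.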
